A study of Mus musculus with 8 samples.

Results

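The NXPE family (neurexophilin and PC-esterase domain family) was followed in RNA of cells sorted from the mouse colon early in graft-versus-host disease. The family was chosen by the measured difference of Nxpe2 between donor types on these same arrays, and its 4 tested genes, Nxpe2, Nxpe3, Nxpe4 and Nxpe5, were taken by name from the 22180 genes tested. Each was read by 1 probe set that carried no other gene symbol: 17526663 for Nxpe2, 17330988 for Nxpe3, 17516978 for Nxpe4 and 17443803 for Nxpe5. In the allogeneic group (n = 4), female C57BL/6 recipients received bone marrow and T cells of LP/J donors, and in the syngeneic group (n = 4) they received those of C57BL/6 donors. All recipients of both groups had first been given busulfan and cyclophosphamide over 5 days. Colon was taken on day 2 after transplantation and digested, and cells that carried CD31 and lacked CD45 and CD11b were sorted, so that endothelial cells were the aim. RNA of each sorted sample (700 pg) was measured on 1 Affymetrix Mouse Gene 2.0 array, and all values below are log2 RMA signals, on which 1 unit is a doubling.

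Proteins of this family join a region related to neurexophilins, which are secreted ligands of neurexins, to a domain of the PC-esterase type, found in enzymes that add or remove acetyl groups on sugars at the cell surface. In the human colon the family member NXPE1 adds acetyl groups to the sialic acids of mucin glycans, and the annotation used here lists its mouse counterpart, Nxpe1-ps, as a pseudogene. Sialic acids are the acidic sugars that end many glycan chains of intestinal mucus. Apart from NXPE1, the enzyme known for this acetylation in mammals is the Golgi protein encoded by Casd1, and the esterase encoded by Siae takes the acetyl groups off again. The roles of the mouse proteins Nxpe2, Nxpe3, Nxpe4 and Nxpe5 are not described here beyond their family.

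Nxpe4 and Nxpe2 share a place on chromosome 9, where the RefSeq span of Nxpe4 contains that of Nxpe2 on the opposite strand and Nxpe1-ps follows, whereas Nxpe3 lies on chromosome 16 and Nxpe5 on chromosome 5. The 250 bases upstream of the annotated starts of Nxpe2 and Nxpe4 are shown because these 2 genes are the members with the largest changes, and because sequence upstream of a start is where regulatory proteins often bind. They are from RefSeq (GRCm38.p6), chr9:48340899-48341148 on the minus strand for Nxpe2 and chr9:48361791-48362040 on the plus strand for Nxpe4, written 5′ to 3′. The Nxpe4 window lies at higher coordinates than that of Nxpe2. The start used for Nxpe4 is therefore inside its annotated span and not at the lower end. Windows at any other start of Nxpe4 are not shown. Capitals mark the letters TTTAT on either strand, the core of the sites of caudal-type (CDX) factors of the intestinal epithelium.
Nxpe2: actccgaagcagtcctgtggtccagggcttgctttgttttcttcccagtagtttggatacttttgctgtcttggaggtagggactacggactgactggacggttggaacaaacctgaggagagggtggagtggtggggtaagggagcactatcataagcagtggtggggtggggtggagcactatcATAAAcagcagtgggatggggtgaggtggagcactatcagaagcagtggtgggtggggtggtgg
Nxpe4: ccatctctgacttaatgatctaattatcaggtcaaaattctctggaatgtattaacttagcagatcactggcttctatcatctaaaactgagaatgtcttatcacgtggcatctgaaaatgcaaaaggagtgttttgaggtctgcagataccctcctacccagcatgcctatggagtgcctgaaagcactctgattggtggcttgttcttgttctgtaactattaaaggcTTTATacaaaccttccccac

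The letters TTTAT or their reverse occurred 1 time in each of these windows and 0 times in those of Nxpe3 and Nxpe5, and 37.3% of 32851 upstream windows of the same length held them. The window of Nxpe2 held the run agcactatc 3 times. At least 3 copies of some run of 9 bases were found in 12.2% of all windows. No run of 9 bases occurred more than 1 time in the window of Nxpe4. The windows also differed in base composition, with 54.8% G and C for Nxpe2 and 40.8% for Nxpe4, against a median of 52.4% over all windows. These matches describe the letters of the windows, and binding was not measured.

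The sorted samples carried the RNA of endothelial cells and, on every array, of colon epithelium, with signals of fibroblast and smooth muscle genes as well. Pecam1, which encodes CD31, lay between 9.76 and 10.46 on the allogeneic arrays and between 9.80 and 11.58 on the syngeneic ones. The epithelial adhesion gene Epcam lay between 9.47 and 9.51 on the allogeneic and between 8.93 and 9.44 on the syngeneic arrays. Car1, of the absorptive colonocyte list, lay between 13.02 and 13.26 on the allogeneic and between 12.44 and 13.15 on the syngeneic arrays. Array means of the fibroblast list ran from 7.33 to 8.38 on the allogeneic and from 6.96 to 7.82 on the syngeneic arrays. Those of the smooth muscle and pericyte list ran from 7.89 to 8.59 and from 8.02 to 8.97. Signals of different genes do not give the shares of cell types. Ptprc and Itgam, which encode the excluded CD45 and CD11b, had log2 changes of 0.01 and -0.14 (limma adjusted p = 0.996 and 0.83). Ptprc lay between 4.42 and 6.18 on the allogeneic and between 4.61 and 5.76 on the syngeneic arrays. Itgam lay between 5.13 and 5.44 and between 4.99 and 5.92. Whether RNA of excluded cells remained was not tested. Syngeneic arrays 3 and 4 stood apart, with array means over 20 pan-endothelial genes of 8.89 and 9.79, where syngeneic arrays 1 and 2 had 8.17 and 7.87 and the allogeneic arrays 7.55 to 8.25. In such bulk samples, fewer cells of a type and less RNA per cell cannot be told apart, and a change of a member cannot be assigned to a cell type.

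Nxpe2 was the member that set the family apart, and its values are given as a description with no test, since its change was the reason for the choice. Its signals were 8.99, 9.22, 9.41 and 9.39 on the allogeneic arrays, against 6.57, 6.85, 6.23 and 6.94 on the syngeneic arrays. Every allogeneic value lay above every syngeneic value, and the gap between the lowest allogeneic and the highest syngeneic array was 2.06. Allogeneic samples averaged 9.25 ± 0.20 and syngeneic samples 6.65 ± 0.32 (SD over 4 arrays of each group). The fitted log2 difference was 2.61 ± 0.18 (SE), or 6.10-fold. The spread within the groups was small beside this, with a range of 0.42 among allogeneic and 0.71 among syngeneic arrays. Of the 4 members, Nxpe2 was the 1 whose groups did not overlap, where 8.55% of all genes had groups without overlap, 5.18% with the allogeneic arrays higher and 3.36% with them lower.

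Nxpe4, whose annotated span contains Nxpe2, had higher signals in the allogeneic group with 1 syngeneic exception, and did not pass the test. Its signals were 7.50, 7.86, 8.31 and 8.10 on the allogeneic arrays, against 7.07, 6.73, 6.88 and 8.29 on the syngeneic arrays. Syngeneic arrays 1, 2 and 3 all lay below the lowest allogeneic array, while syngeneic array 4 lay above all allogeneic arrays but the third. Allogeneic samples averaged 7.94 ± 0.35 and syngeneic samples 7.24 ± 0.71 (SD over 4 arrays of each group). The log2 change was 0.70 ± 0.32 (SE), with a 95% interval from -0.0026 to 1.399 and a limma adjusted p = 0.378 over all genes. Without syngeneic array 4 the log2 change of Nxpe4 was 1.05 ± 0.20 (SE, limma adjusted p = 0.0503). Over the 22 alternatives its limma adjusted p ran from 0.0503 to 0.593, and it passed in 0 of them. Whether a probe of either gene also reads transcripts of the other was not tested.

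Nxpe3, on chromosome 16, showed no difference in means, and its syngeneic arrays were spread widely. Its signals were 5.13, 5.07, 4.78 and 4.90 on the allogeneic arrays, against 4.79, 5.04, 4.31 and 5.68 on the syngeneic arrays. The 4 allogeneic arrays all lay inside the range of the syngeneic ones, whose lowest value was on array 3 and whose highest was on array 4. The log2 change was 0.01 ± 0.25 (SE), with a 95% interval from -0.53 to 0.56 and a limma adjusted p = 0.99.

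Nxpe5, on chromosome 5, had low signals in both groups. They were 2.98, 3.53, 3.49 and 3.16 on the allogeneic arrays, against 3.49, 3.22, 3.57 and 3.34 on the syngeneic arrays, and the groups overlapped. Its log2 change was -0.12 ± 0.15 (SE), with a 95% interval from -0.44 to 0.21 and a limma adjusted p = 0.793. As a guide to background in these female recipients, the Y-linked genes Eif2s3y, Kdm5d and Uty had means of 2.67, 2.86 and 2.96 in the allogeneic group and 2.75, 2.77 and 2.73 in the syngeneic group. No detection call was at hand, so a low signal of Nxpe5 is not given as absence, and a difference of Nxpe5 at such signals could be understated.

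**Figure D1:**
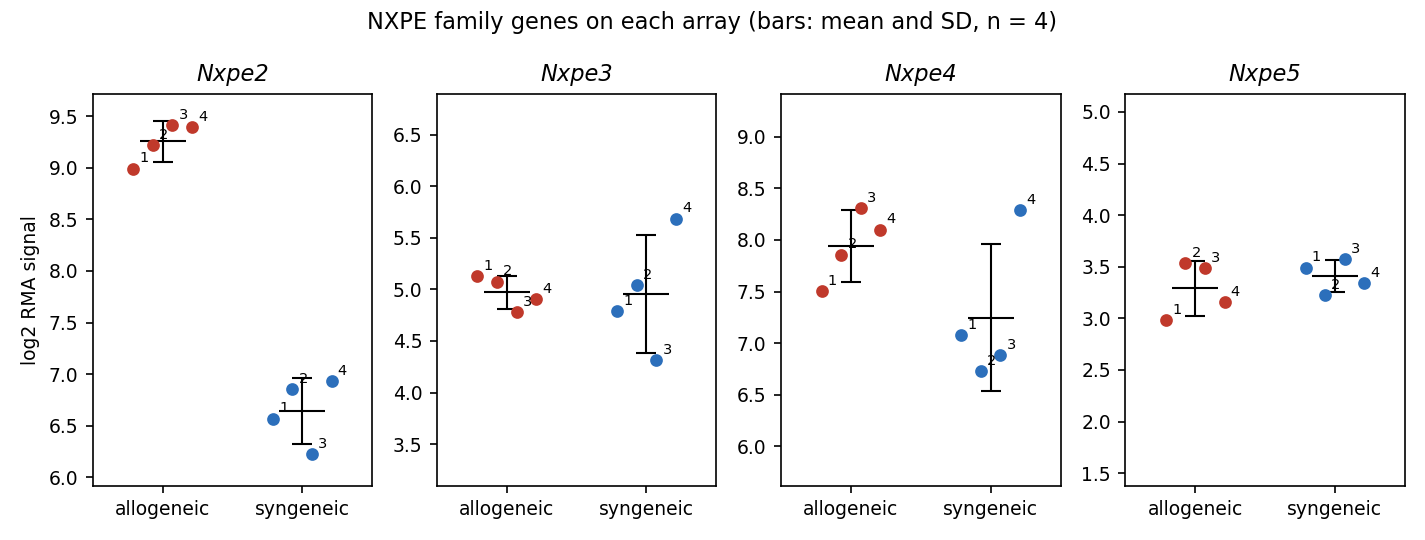
Log2 RMA signal (y axis) of the 4 NXPE genes on each allogeneic (red) and syngeneic (blue) array. Points are arrays with their replicate number, bars are mean and SD (n = 4), and all panels span the same length on the log2 scale around their own centre. The Nxpe2 groups are 2.06 apart at their nearest arrays, while syngeneic array 4 (8.29) lies among the allogeneic arrays for Nxpe4, and the groups of Nxpe3 and Nxpe5 overlap.

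The large change of Nxpe2 was therefore not found at that size in any of its 3 tested relatives. Of the 4 members, 1 (Nxpe2) was past an adjusted p of 0.05 in limma and 3 were not, where 0.469% of all genes were past it, 0.356% higher and 0.113% lower in allogeneic samples. Nothing is read from that count, because the change of Nxpe2 chose the family. Log2 changes side by side were 2.61 for Nxpe2, 0.70 for Nxpe4, 0.01 for Nxpe3 and -0.12 for Nxpe5, with a median over all genes of -0.0050. No test of the difference between Nxpe2 and a relative is given, for the same reason. Syngeneic array 4 had the highest syngeneic signal for Nxpe2, Nxpe3 and Nxpe4, but not for Nxpe5, where array 3 was highest.

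Markers of other cell types differed between the arrays as well, and their values stand beside those of Nxpe2 and Nxpe4. Of 20 measured pan-endothelial genes 20 had a negative log2 change (median -0.69) and 0 passed in limma, with 7 at an unadjusted p below 0.05, where 13.2% of all genes were below it. The list median rested on syngeneic arrays 3 and 4, without which 10 of 20 were negative and the median was 0.02. With syngeneic array 4 alone left out, 19 of 20 were negative and the median was -0.31. In 2 of the 20 all syngeneic arrays lay above all allogeneic ones, as in 3.36% of all genes. These were Eng (8.92 or more against 8.83 or less) and Ecscr (7.41 or more against 7.33 or less).

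Of 20 absorptive colonocyte genes 18 had a positive log2 change (median 0.57), and 11 had an unadjusted p below 0.05, against 13.2% of all genes. In limma 17 did not pass and 3 rose, where 0.356% of all genes rose. These were the brush border protease gene Mep1a (log2 change 1.81, limma adjusted p = 0.038), the sulfotransferase gene Sult1a1 (1.33, limma adjusted p = 0.034) and the amino acid transporter gene Slc6a14 (1.51, limma adjusted p = 0.0493). Without syngeneic arrays 3 and 4 the median was 0.29 and 1 of 20 rose; without syngeneic array 4 alone it was 0.38 and 2 rose. Of 20 general colon epithelium genes 19 had a positive log2 change (median 0.21), and 0 passed in limma, with 5 at an unadjusted p below 0.05. Without syngeneic arrays 3 and 4, 12 of these were positive (median 0.02), and without array 4 alone 14 were (median 0.11). These settings for the marker lists were added once their values were known. Of the crypt stem and cycling genes 5 of 9 and of the distal Hox genes 4 of 6 had a positive log2 change. In each of these 2 lists 0 passed in limma and 2 had an unadjusted p below 0.05. In the leukocyte, fibroblast, smooth muscle, enteric neuron and glia, and enteroendocrine and tuft cell lists 0 genes passed in limma, where 0.469% of all genes did. Positive log2 changes were found for 7 of 11 leukocyte, 6 of 7 fibroblast, 1 of 8 smooth muscle, 4 of 6 enteric neuron and glia and 4 of 8 enteroendocrine and tuft cell genes, with 0, 3, 2, 1 and 2 at an unadjusted p below 0.05. The array means of the absorptive list were 10.02, 9.87, 9.89 and 10.31 in allogeneic and 9.62, 9.65, 9.17 and 8.72 in syngeneic samples, without overlap.

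The log2 change of Nxpe2, again as a description, was 2.67 with the array mean of the colon epithelium list as a covariate, 2.65 with that of the absorptive colonocyte list, 2.70 with that of the pan-endothelial list, and 2.54 without syngeneic arrays 3 and 4. The absorptive means of the groups did not overlap, so donor type and this list cannot be told apart, and the value with that covariate extends the fit beyond the levels both groups shared. For Nxpe4 the same settings moved the value more. Its log2 change was 1.29 ± 0.25 (SE, limma adjusted p = 0.123) with the epithelial covariate, 1.52 ± 0.40 (limma adjusted p = 0.573) with the absorptive one, 1.26 ± 0.22 (limma adjusted p = 0.0585) with the endothelial one, and 1.04 ± 0.23 (limma adjusted p = 0.13) without syngeneic arrays 3 and 4. Syngeneic array 4, whose Nxpe4 signal of 8.29 lay in the allogeneic range, had the highest pan-endothelial mean (9.79) and the lowest absorptive mean (8.72) of all 8 arrays. Syngeneic array 3 had the next highest pan-endothelial mean (8.89) and an Nxpe4 signal of 6.88, below the 7.07 of syngeneic array 1. Over the 8 arrays Pearson r between Nxpe4 and the pan-endothelial mean was 0.27, and 0.88 after centring on the group means. With the absorptive mean it was 0.11, and -0.68 after centring. These values describe arrays that share their normalization. The part of cell type signal in the values of Nxpe2 and Nxpe4 was not tested beyond these fits.

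**Figure D2:**
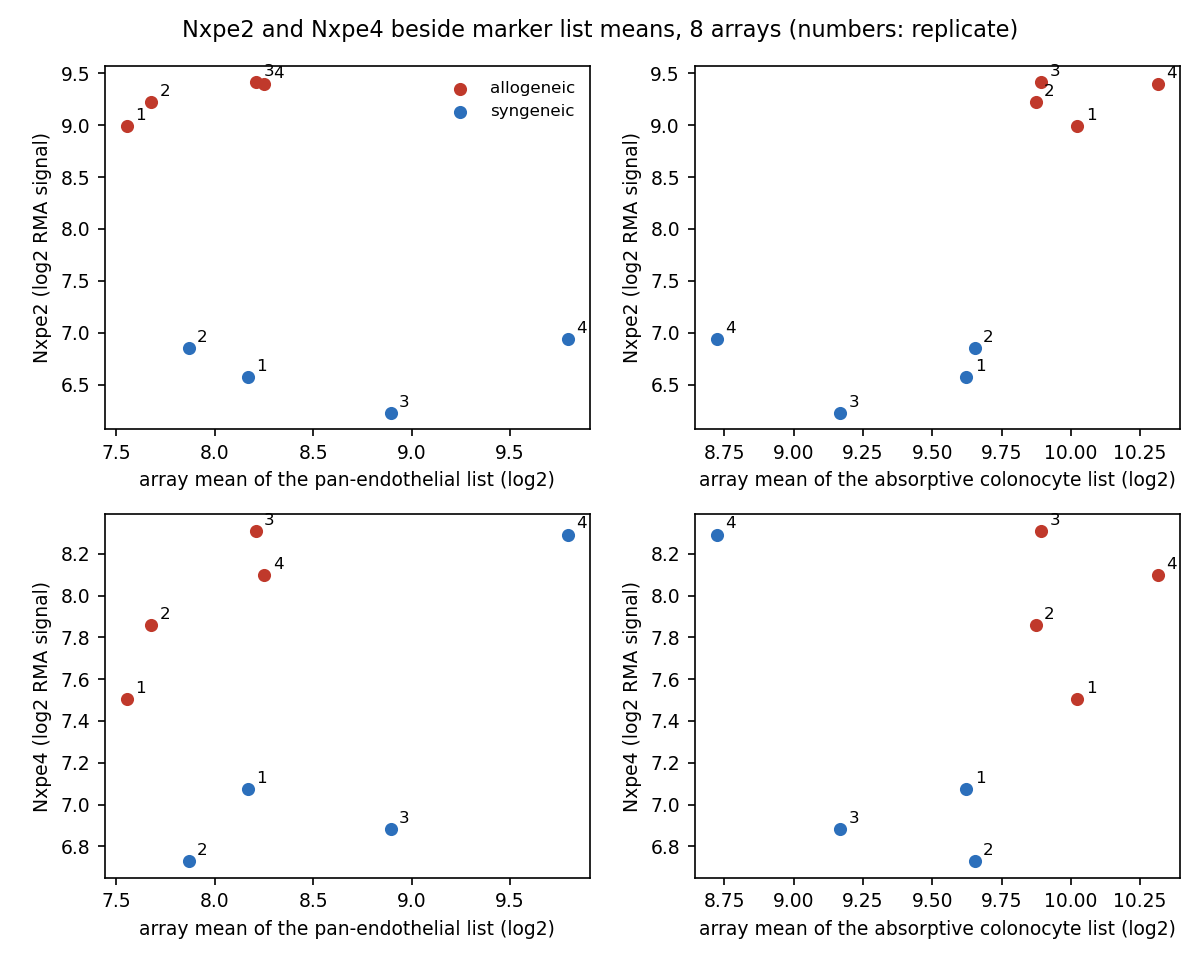
Log2 RMA signal of Nxpe2 (top) and Nxpe4 (bottom) on each array (y axis) against the array mean of the pan-endothelial (left) and absorptive colonocyte list (right, x axes, log2). Red points are allogeneic and blue points syngeneic arrays, numbered by replicate. Every allogeneic Nxpe2 signal (8.99 or more) lies above every syngeneic one (6.94 or less), the absorptive means of the groups do not overlap, and for Nxpe4 syngeneic array 4 lies at 8.29 with the highest endothelial mean, 9.79.

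The genes whose pattern over the 8 arrays was most like that of Nxpe2 were Atp8b1, a phospholipid flippase gene, Sde2, Cbr4, a mitochondrial carbonyl reductase gene, Pcyox1, a prenylcysteine oxidase gene, and Ggh, a gamma-glutamyl hydrolase gene. Their Pearson r with Nxpe2 ran from 0.969 to 0.9745, and was set largely by the difference between the groups. After centring on the group means r was 0.22 for Atp8b1, 0.70 for Sde2, 0.78 for Cbr4, 0.39 for Pcyox1 and 0.73 for Ggh. In none of these 5 genes did the groups overlap, and their log2 changes lay between 0.57 and 1.44. The largest of these was that of Ggh, with means of 9.67 in allogeneic and 8.23 in syngeneic samples. They are given with no test, since likeness to Nxpe2 chose these genes.

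Different genes were most like Nxpe4, led by Maf1, a repressor of RNA polymerase III (r = 0.969, and 0.965 after centring on the group means). Mob4, Osbpl8, a lipid transfer protein gene, Slc48a1, a haem transporter gene, and Calcoco1 followed, with r between 0.937 and 0.956. None of these 5 passed the test, with log2 changes between 0.21 and 0.32. Nxpe3 was most like Lgals8, a galectin gene, with Cnot4, Wdr4, Sap30bp and Sh3glb1 next (r from 0.951 to 0.979). Nxpe5 was most like Rae1 (r = 0.946), and Zdhhc4, Wdr86, Cd164l2 and Loxl4 followed with r of at most 0.867. All these are descriptions over 8 arrays that share their quantile normalization, among 10587 named genes with a mean at or above the median gene. For the median of those genes the closest other gene had an r of 0.971, so that values of this size were common. Between members, r was 0.66 for Nxpe2 and Nxpe4 (0.63 after centring), 0.13 for Nxpe2 and Nxpe3 (0.64) and -0.31 for Nxpe2 and Nxpe5 (-0.14).

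Genes around Nxpe4 and Nxpe2 on chromosome 9 gave no common change. Among the 6 nearest tested genes on each side of Nxpe4 and Nxpe2, a set chosen after the data were seen, 0 rose and 1 fell in limma. Of all genes 0.356% rose and 0.113% fell. A positive log2 change was found for 5 of these 12 neighbours. The neighbour that fell was Zbtb16, the farthest on the side of higher coordinates, which encodes the transcription factor PLZF. Its signals were 5.53, 5.13, 5.50 and 6.03 on the allogeneic arrays, against 7.69, 7.26, 8.14 and 6.96 on the syngeneic arrays. The groups did not overlap, and Zbtb16 fell by 1.96 on the log2 scale, with an SE of 0.27 and a limma adjusted p = 0.0195. Thus the genes with a large rise and a large fall in this neighbourhood were separated by genes with smaller changes. The exonuclease gene Rexo2 had a log2 change of -0.16, the RNA-binding protein gene Rbm7 -0.06, and Nnmt, a nicotinamide N-methyltransferase gene, 0.05 (limma adjusted p = 0.739, 0.906 and 0.954). The predicted gene Gm5617 had one of 0.83 ± 0.26 (SE, limma adjusted p = 0.204), and, as for Nxpe4, its syngeneic array 4 (7.10) lay in the allogeneic range (6.84 to 7.39), above the other syngeneic arrays (5.85 to 6.10). On the side of lower coordinates the nearest was the predicted gene Gm10677, at 0.29 (limma adjusted p = 0.434). Its allogeneic arrays (4.20 to 4.79) lay above its syngeneic arrays (4.05 to 4.17). Cadm1, a cell adhesion gene, was at -0.04. The remaining genes on that side had low means, from 2.60 to 3.92, at which a difference could be understated. The same holds for the predicted gene Gm8884, the nearest on the side of higher coordinates, with a mean of 3.62 and a log2 change of 0.12. Of the 12 genes around Nxpe3 and the 12 around Nxpe5, 0 passed, where 0.469% of all genes did. Their log2 changes ran from -0.45 to 0.55 and from -0.31 to 0.80.

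**Figure D3:**
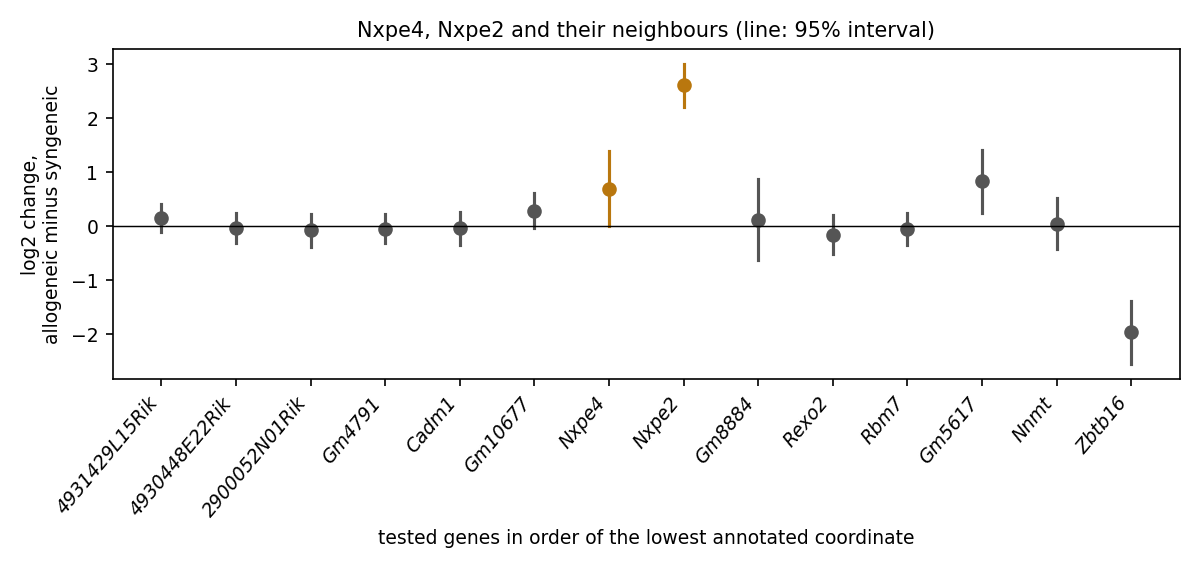
Log2 change, allogeneic minus syngeneic (y axis), of Nxpe4 and Nxpe2 (orange) and the 6 nearest tested genes on each side (grey), in the order of their lowest annotated coordinate (x axis, not to scale). Points are the fitted changes and lines their 95% intervals. Nxpe2 lies at 2.61 and Zbtb16 at -1.96, with Rexo2, Rbm7 and Nnmt near 0 and Gm5617 at 0.83 in between.

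Genes related to the family by domain gave no called change, where 0.469% of all genes were called. In lists this short 0 calls is near that share, here and in the related lists below. Of the 7 genes for the PC-esterase proteins Casd1, Pced1a and Pced1b and for the neurexophilins Nxph1, Nxph2, Nxph3 and Nxph4, 0 passed in limma, with 1 at an unadjusted p below 0.05, and their median log2 change was -0.17. The 1 was Casd1, the sialic acid O-acetyltransferase gene. Its signals were 8.98, 9.004, 9.14 and 8.97 on the allogeneic arrays, against 8.61, 8.45, 8.58 and 7.97 on the syngeneic arrays. The groups did not overlap, and the log2 change of 0.62 ± 0.15 (SE, 95% interval 0.28 to 0.95) had a limma adjusted p = 0.11. The 4 neurexophilin genes had log2 changes between -0.21 and 0.20, Pced1a one of -0.17 and Pced1b one of -0.35. The neurexin genes Nrxn2 and Nrxn3, which encode receptors of neurexophilins, were at 0.05 and -0.0059.

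The esterase gene Siae, which acts against Casd1, had signals of 7.78, 7.68, 7.64 and 7.93 on the allogeneic arrays, against 7.45, 6.88, 7.10 and 7.01 on the syngeneic arrays. As for Casd1, the groups were separate and the test was not passed (log2 change 0.65 ± 0.15 SE, limma adjusted p = 0.103). Of all genes 5.18% had every allogeneic array above every syngeneic array. Slc33a1, which carries acetyl-CoA into the Golgi and endoplasmic reticulum, was at 0.13 with overlapping arrays (95% interval -0.17 to 0.43, limma adjusted p = 0.736).

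**Figure D4:**
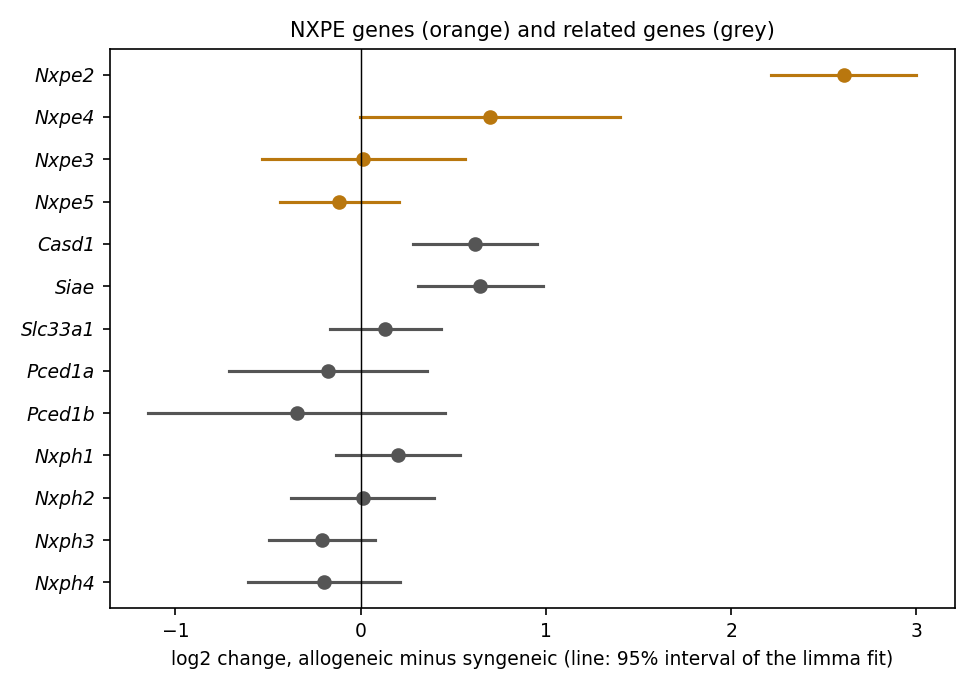
Log2 change, allogeneic minus syngeneic (x axis), of the 4 NXPE genes (orange) and of genes related by domain or by sialic acid acetylation (grey). Points are fitted changes and lines are 95% intervals of the limma fit over all 8 arrays. Nxpe2 lies at 2.61, Nxpe4 at 0.70, and Casd1 and Siae at 0.62 and 0.65 with intervals above 0, although neither passed after adjustment over all genes.

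Genes for the supply of sialic acid had mostly positive log2 changes, none of which passed. Of 7 measured, 5 were positive (median 0.48) and 0 passed in limma, while 5 had an unadjusted p below 0.05, against 13.2% of all genes. Gne, the key enzyme of sialic acid synthesis, was at 0.48 ± 0.13, Cmas, which activates the sugar, at 0.49 ± 0.14, and the Golgi transporter gene Slc35a1 at 0.59 ± 0.19 (SE, limma adjusted p = 0.143, 0.156 and 0.21). In all 3 the allogeneic arrays lay above the syngeneic arrays, as in 5.18% of all genes. These genes were named for their small p, which goes with such a separation. Nanp, a sialic acid phosphatase gene, was at 0.54 ± 0.24 (SE, limma adjusted p = 0.365), and its arrays overlapped.

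Sialyltransferase genes, which attach the sugar to glycans, went both ways. Of 20 measured, 9 had a positive log2 change (median -0.04), and 0 passed in limma, with 3 at an unadjusted p below 0.05. St3gal6 came nearest to a call, with signals of 9.48, 9.36, 9.32 and 9.38 on the allogeneic arrays, against 8.91, 8.81, 8.98 and 8.86 on the syngeneic arrays. Its log2 change of 0.49 ± 0.10 (SE) had a limma adjusted p = 0.0616, and passed when genes with a mean log2 value below 4 or 5 were left out (limma adjusted p = 0.0425 and 0.033) and with array weights (0.0439). St3gal3 was at 0.72 ± 0.19 (SE, limma adjusted p = 0.132). St6galnac1, the mucin sialyltransferase of goblet cells, was at 0.03, with a 95% interval from -0.41 to 0.46. Among 4 sialidase genes, which remove sialic acid, Neu3 had the smallest p (log2 change -0.70 ± 0.29 SE, limma adjusted p = 0.322), and 0 passed in limma, with 1 at an unadjusted p below 0.05.

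Enzymes that build the O-glycans of mucins also gave no call. Of 22 measured genes 17 had a positive log2 change (median 0.19), and 0 passed in limma, with 6 at an unadjusted p below 0.05. Galnt7, which adds the sugar that starts these chains, was at 0.69 ± 0.17 (SE, limma adjusted p = 0.108), with no overlap between the groups. B3gnt6, the core 3 synthase of the colon, was at 0.89 ± 0.26 (SE, limma adjusted p = 0.176), and Galnt6 at 0.76 ± 0.29 (SE, limma adjusted p = 0.299). Over all 64 measured genes of these related lists 38 had a positive log2 change (median 0.11), where 49% of all genes did (median -0.0050). In limma 0 of the 64 passed, against 0.469% of all genes. An unadjusted p below 0.05 was found for 17 of the 64, a larger share than the 13.2% of all genes. Allogeneic arrays lay wholly above the syngeneic ones in 9 of the 64, against 5.18% of all genes. They lay wholly below in 0, against 3.36%.

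Genes of mucins and goblet cells went both ways. Muc2, the gel-forming mucin of colon goblet cells, had signals of 12.85, 12.90, 12.58 and 12.63 on the allogeneic arrays, against 13.05, 13.07, 12.83 and 12.30 on the syngeneic arrays. Its log2 change was -0.07, with a 95% interval from -0.41 to 0.26 (limma adjusted p = 0.888). Among 19 mucin and goblet cell genes, 0 rose and 1 fell in limma, where 0.356% of all genes rose and 0.113% fell. The 1 was Muc1, a membrane-bound mucin. Its signals were 5.81, 5.65, 5.94 and 5.96 on the allogeneic arrays, against 7.15, 7.20, 6.85 and 6.81 on the syngeneic arrays, without overlap (log2 change -1.16 ± 0.15 SE, limma adjusted p = 0.0178). Of the list 13 had a positive log2 change (median 0.18), and 5 had an unadjusted p below 0.05, against 49% and 13.2% of all genes. Ang4, an antimicrobial ribonuclease gene, was at 1.74 ± 0.50 (SE, limma adjusted p = 0.163) with overlapping arrays. Bcas1 was at 0.59 and Spdef, a transcription factor gene of goblet cells, at 0.48 (limma adjusted p = 0.185 and 0.215). Both had separate groups, as did 5.18% of all genes in that direction. These lists shared the arrays and their epithelial and endothelial signals given above, whose part in their values was not tested.

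**Figure D5:**
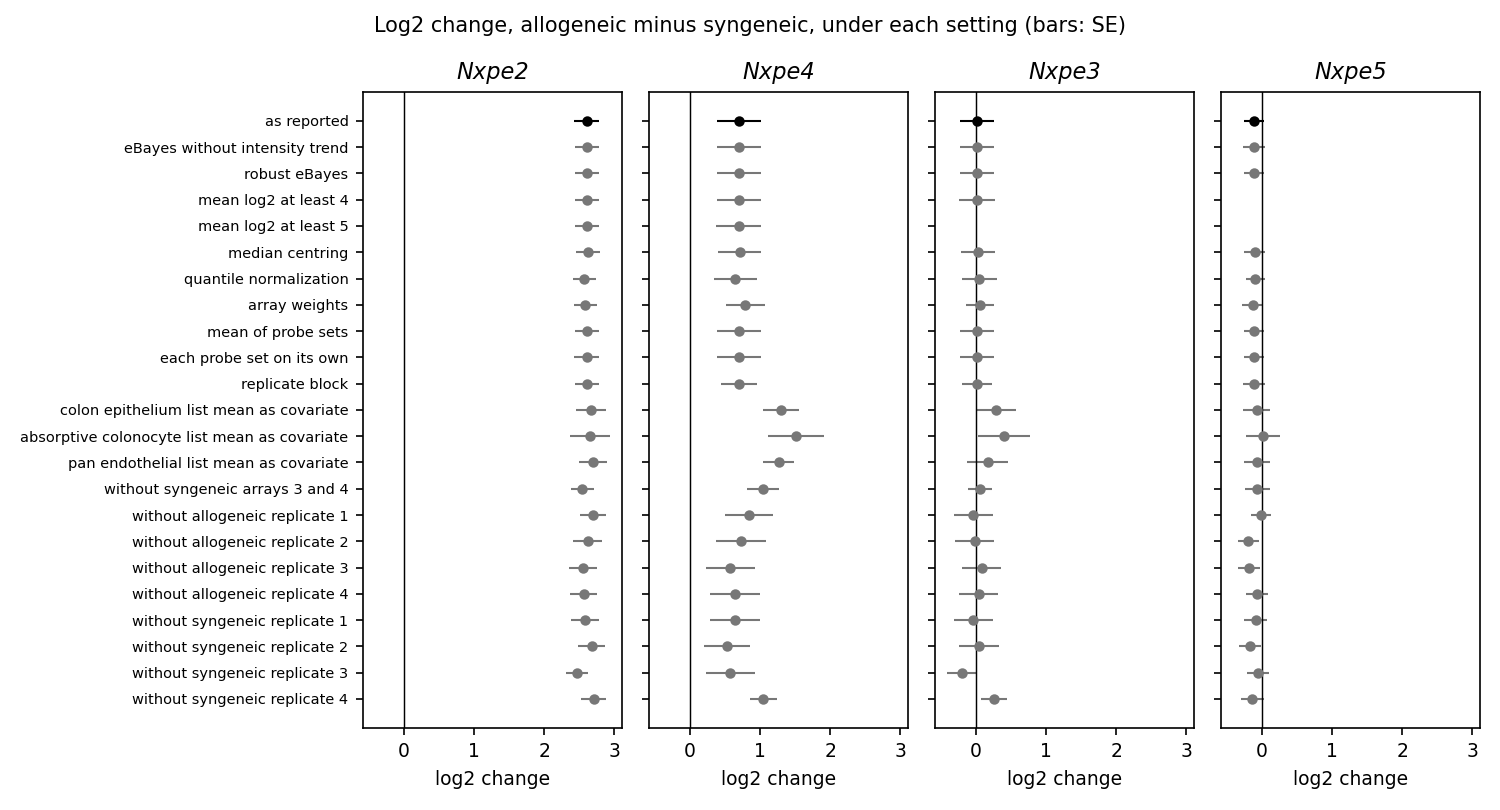
Log2 change, allogeneic minus syngeneic (x axis, common to all panels), of each NXPE gene under every setting (rows), with the SE as bars. Gaps are settings whose filter on dim genes left the gene out. Nxpe2 stayed between 2.47 and 2.70, Nxpe4 between 0.53 and 1.52, and Nxpe3 and Nxpe5 lay on either side of 0.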

How the data were processed

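Values were used as deposited, on the log2 scale. Per the submitters' processing notes they came from Expression Console 1.4.1 with RMA, a method that corrects background, normalizes by quantiles and summarises probes. Scanner files and detection calls were not used here, and the number of arrays limits the precision. Of 41345 probe sets 23521 had exactly 1 gene symbol in the platform annotation, and where a gene had several the brightest on average was taken, which left 22180 genes. Groups came from the titles, which number biological replicates, and the series' design text lists 4 mice a group. A linear model with the group as its 1 coefficient was fitted with limma 3.58.1 in R 4.3.3 (eBayes with an intensity trend), with p-values adjusted by Benjamini-Hochberg over all genes, a threshold of 0.05 and 95% intervals. The fit was tested on simulated data. Members and gene lists were chosen with earlier results of these data known. Named genes are the members, up to 4 genes with the smallest p in each list, all called list genes, fixed markers, and the 5 genes most alike to each member in Pearson r. Lists were described by counts and medians. Promoter windows came from RefSeq, in which all 4 members were matched by symbol. Alternatives covered a filter on dim genes, array weights, another scaling, the variance prior, the choice of probe set, cell type covariates, a block on replicate number and left-out arrays. The labels used here name no batch.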

Additional observations from a re-analysis of the deposited data

Results flagged for a closer look

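In 7 of 158 groups of 4 arrays checked, over the members and the other named genes, 1 array lay farther from the rest than Dixon's test at the 95% level allows, and chance gives about 1 in 20. None of the NXPE genes was among them. Gne had 10.33 on allogeneic array 3, against 10.47 to 10.49 on the other allogeneic arrays, and Mob4 had 7.83 on allogeneic array 3, against 7.64 to 7.67. Among syngeneic arrays, Nanp had 5.91 on array 2, against 4.92 to 5.07 on the others. Nxph2 had 5.66 on array 3, against 5.11 to 5.16, and Cd164l2 had 6.12 on array 3, against 5.30 to 5.41. On syngeneic array 4, Galnt6 had 5.94, against 7.29 to 7.45 on the others, and Nnmt had 6.04, against 5.14 to 5.18.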

How the results depend on the processing

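Over the alternatives run, Nxpe2 kept its direction, with log2 changes from 2.47 to 2.70. Nxpe4 stayed positive, from 0.53 to 1.52, and did not pass in any of them. It was 1.05 without syngeneic array 4. Leaving out 1 array at a time gave 2.47 to 2.70 for Nxpe2, 0.53 to 1.05 for Nxpe4, -0.20 to 0.26 for Nxpe3 and -0.20 to -0.013 for Nxpe5. Nxpe3 turned negative in 4 of these fits (lowest without syngeneic array 3), and Nxpe5 was at 0.013 with the absorptive colonocyte covariate; the cause was not tested. Nxpe5 could not be fitted under either filter on dim genes, nor Nxpe3 under the stricter one. The 104 genes called among all genes became 181 and 197 with genes under a mean log2 of 4 and 5 left out, where fewer genes were tested. They became 69 after repeated quantile normalization, 68 with the replicate block, 7, 2 and 29 with the epithelial, absorptive and endothelial covariates, 38 without syngeneic arrays 3 and 4, and 8 to 180 with 1 array left out (8 without syngeneic array 3, 9 without allogeneic array 1, 19 without allogeneic array 2, 21 without allogeneic array 4, 31 without syngeneic array 1, 45 without allogeneic array 3 and 180 without syngeneic array 2). Of the related lists 0 genes were called, and 1, St3gal6, under each filter on dim genes and with array weights, with 0 in every fit that left out 1 array. The replicate numbers gave no clear pairing of the samples. Correlations of same-numbered deviations from the group means were 0.055, 0.046, -0.096 and 0.095, and 1 of 4 allogeneic arrays correlated best with its own number. With so few arrays, these values cannot show whether same-numbered samples were handled together. With the replicate block the log2 changes of Nxpe2, Nxpe4, Nxpe3 and Nxpe5 were 2.61, 0.70, 0.01 and -0.12, and no call of a member changed. Without detection calls, differences at the signals of Nxpe5 are the least certain.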
